A study of Mus musculus with 8 samples.

Results

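Malat1 (ENSMUSG00000092341) and Neat1 (ENSMUSG00000092274) are a pair of long non-coding RNAs that stay in the nucleus. They were found in the deposited count table by their Ensembl gene IDs, each of which had 1 row, so 2 of 56748 IDs are described. The table holds raw RNA-seq counts of mouse liver, a bulk tissue in which fewer cells of a type and less RNA per cell cannot be told apart. There were 4 liver libraries labelled miR-93 knockout (KO 1 to KO 4) and 4 labelled wild type (WT 1 to WT 4). All 8 were taken at 16 weeks from mice with metabolic dysfunction-associated steatotic liver disease (MASLD) on a high fat-high fructose diet, which the wild-type mice ate too, so no liver on an ordinary diet was included. Sex, strain, age and how the knockout was made are not given in the sources used here. The labels do not say that each library came from its own animal, so the p-values below measure only the spread between these libraries. A KO or WT liver below stands for a library with that label.

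Malat1 is a long, unspliced transcript of nuclear speckles, bodies that hold splicing factors. Its 3′ end is not a usual poly(A) tail: RNase P cuts it, and the new end folds into a triple helix that slows decay. Neat1 lies next to Malat1 and is the scaffold of paraspeckles, bodies built on its long isoform by RNA-binding proteins such as NONO and SFPQ. A short isoform that shares the start of the gene ends at a poly(A) site and is not sufficient to build paraspeckles. Neat1 is induced by several kinds of cell stress, while Malat1 is abundant in most tissues.

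The knocked-out RNA, miR-93-5p, binds targets through bases 2 to 8, its seed, so its sequence is shown with the stretches of Neat1 that match it. The RefSeq table (GRCm38.p6) places the mature miRNA at chr5:138165574-138165596 on the minus strand. The same seed is found in 6 other mature mouse miRNAs of that table, among them miR-106b-5p, made from the same host gene, and miR-17-5p. The seed is in capitals in these mature sequences.
miR-93-5p: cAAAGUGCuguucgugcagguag
miR-106b-5p: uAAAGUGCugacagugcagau
miR-17-5p: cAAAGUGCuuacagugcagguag

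A seed match on the sense strand of a transcript reads GCACTTT. Of the 4 Malat1 transcripts in GENCODE M21, up to 6983 nt long, none held this match. The long Neat1 transcript, 20771 nt, held 3, and the 3 shorter Neat1 transcripts held none. The 3 stretches are given from the long transcript with the match in capitals, at bases 8494 to 8500, 11051 to 11057 and 11872 to 11878 counted from its start on chromosome 19.
Neat1 match 1: gtatatcttagGCACTTTgcatatggaact
Neat1 match 2: cttggcagccaGCACTTTgaccagctgagc
Neat1 match 3: ccttaattccaGCACTTTgggggcaagttc
All 3 lie beyond the end of the main short isoform (3004 nt), whose last base aligns to base 3172 of the long one, so only the long isoform carries them. None of the 3 is followed by an A. The match is common at such lengths: among non-coding transcripts of at least 6983 nt, members included, 22 of 62 (35.48%) held it in their first 6983 nt, and 3 of 6 of at least 20771 nt held it in their first 20771 nt. The density was 0.144 matches per kb in long Neat1, against 0.0601 per kb over all non-coding transcripts. These are matches of letters and do not show binding. The row for the precursor Mir93 was 0 in all 8 libraries, as were those of Mir25 and Mir106b, so the table does not check the genotype labels.

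Total counts ran from 9187279 to 10966019 in the KO libraries and from 5085860 to 7451026 in the WT libraries. Counts on the mitochondrial genome took 15.0%, 8.08%, 11.7% and 9.30% of KO 1 to KO 4, against 25.4%, 35.5%, 27.9% and 77.8% of WT 1 to WT 4. The genotypes do not overlap in this share, so genotype and mitochondrial share cannot be told apart. WT 4 stood apart from the rest and kept 1131446 non-mitochondrial counts, so the results of Malat1 and Neat1 and the counts of the gene lists tied to them are given with and without it. Levels below are shares of non-mitochondrial counts, or CPM, which is counts divided by library size on a fixed scale, with library sizes scaled by TMM, a method that sets the bulk of genes equal between libraries.

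Malat1 had 2221, 1874, 1862 and 2205 counts in KO 1 to KO 4, against 1557, 1529, 1452 and 241 counts in WT 1 to WT 4. Its share of non-mitochondrial counts was 0.0268%, 0.0222%, 0.0192% and 0.0236% in the KO livers, against 0.0280%, 0.0319%, 0.0317% and 0.0213% in the WT livers. WT 1 to WT 3 were each above all 4 KO livers, while WT 4 lay among the KO livers. The exact 95% interval of the WT 4 share, which covers counting error only, ran from 0.0187% to 0.0242%. It does not reach the share of WT 1, WT 2 or WT 3. By rank among non-mitochondrial genes, Malat1 was number 519 to 783 in the KO livers and 437 to 664 in the WT livers.

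Neat1 had 6537, 4904, 6446 and 5751 counts in KO 1 to KO 4, against 2445, 2866, 2326 and 857 counts in WT 1 to WT 4. Its share of non-mitochondrial counts was 0.0789%, 0.0581%, 0.0665% and 0.0616% in the KO livers, against 0.0440%, 0.0597%, 0.0508% and 0.0757% in the WT livers. WT 1 and WT 3 lay below all 4 KO livers, WT 2 lay above KO 2 only, and WT 4 was second only to KO 1. Neat1 ranked between 175 and 228 in the KO livers and between 171 and 299 in the WT livers, so it took more counts than Malat1 in every library. Per kb of exon the levels were close: Malat1 averaged 23.0 ± 2.71 CPM per kb in KO livers and 27.3 ± 5.44 in WT livers, and Neat1 averaged 22.3 ± 2.49 in KO livers and 18.5 ± 3.55 in WT livers (SD, n = 4 each). The Neat1 length used is that of the long isoform, and gene counts cannot separate the isoforms, so its level per kb would be higher if most reads came from the short one.

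**Figure D1:**
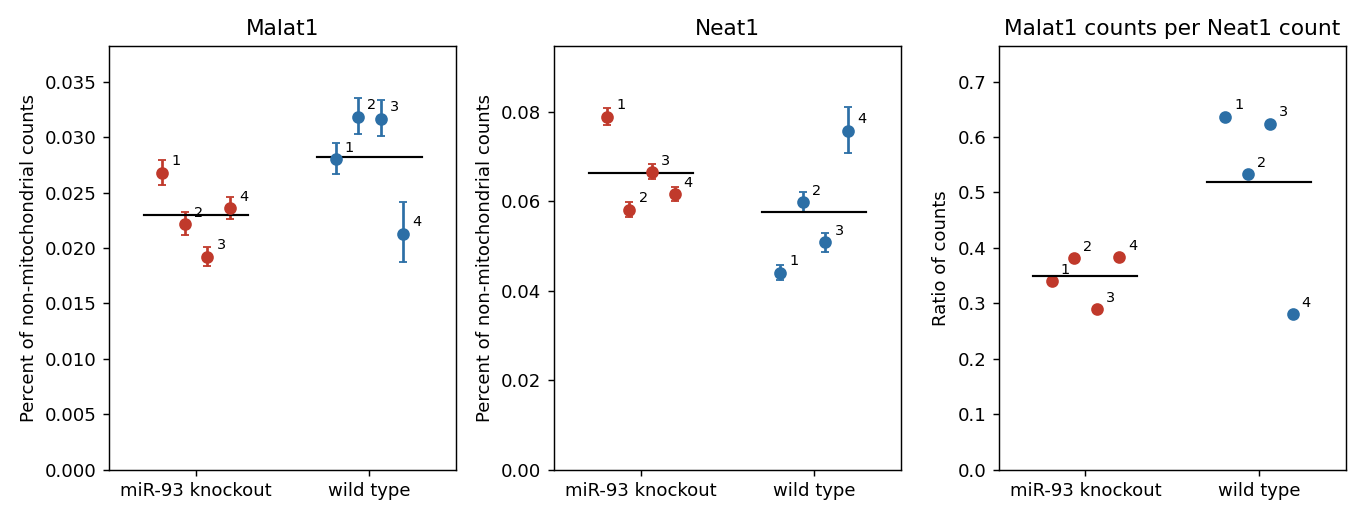
Malat1 and Neat1 as percent of non-mitochondrial counts, and the ratio of their counts, in each knockout and wild-type liver (numbers are replicates, bars the exact 95% intervals for counting error, black lines the group means). WT 4 lies at 0.0213% for Malat1 and 0.0757% for Neat1, away from WT 1 to WT 3 in both, and its ratio of 0.281 is the lowest of the 8.

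Over all 8 libraries neither RNA passed the test of KO against WT. Malat1 averaged 161 ± 18.9 CPM in KO livers and 191 ± 38.0 CPM in WT livers (SD, n = 4 each). Its log2 fold change was -0.25 ± 0.17 (standard error), with a 95% interval from -0.63 to 0.12 and an adjusted p of 0.316 (edgeR's quasi-likelihood test with Benjamini-Hochberg adjustment over 13204 genes). Neat1 averaged 463 ± 51.7 CPM in KO livers and 384 ± 73.7 CPM in WT livers (SD, n = 4 each), a log2 fold change of 0.27 ± 0.16 with a 95% interval from -0.09 to 0.63 and an adjusted p of 0.260 in the same edgeR test. In this fit 10.4% of all genes were called higher in KO and 10.7% lower.

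Without WT 4 both passed, in opposite directions. Malat1 was lower in KO, at 0.774 times the WT level (log2 fold change -0.37 ± 0.10, adjusted p = 0.00532, edgeR over 7 libraries). Neat1 was higher in KO, at 1.33 times the WT level (log2 fold change 0.41 ± 0.10, adjusted p = 0.00313, edgeR over 7 libraries). WT 1 to WT 3 averaged 209 ± 11.8 CPM for Malat1 and 352 ± 42.5 CPM for Neat1 (SD, n = 3). In CPM, all 4 KO livers lay below these 3 for Malat1 and above them for Neat1. Such calls were frequent: without WT 4, 17.8% of all genes were called higher in KO and 17.5% lower, and 20.3% of genes had all KO livers above WT 1 to WT 3, with 20.0% below. In all, 4853 of 13777 genes were called in that fit. Scaling matters for Malat1: by library size alone its log2 fold change was 0.24 and that of Neat1 0.91, but the median of all genes was then 0.54, so relative to the median Malat1 stood at -0.30 and Neat1 at 0.37.

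**Figure D2:**
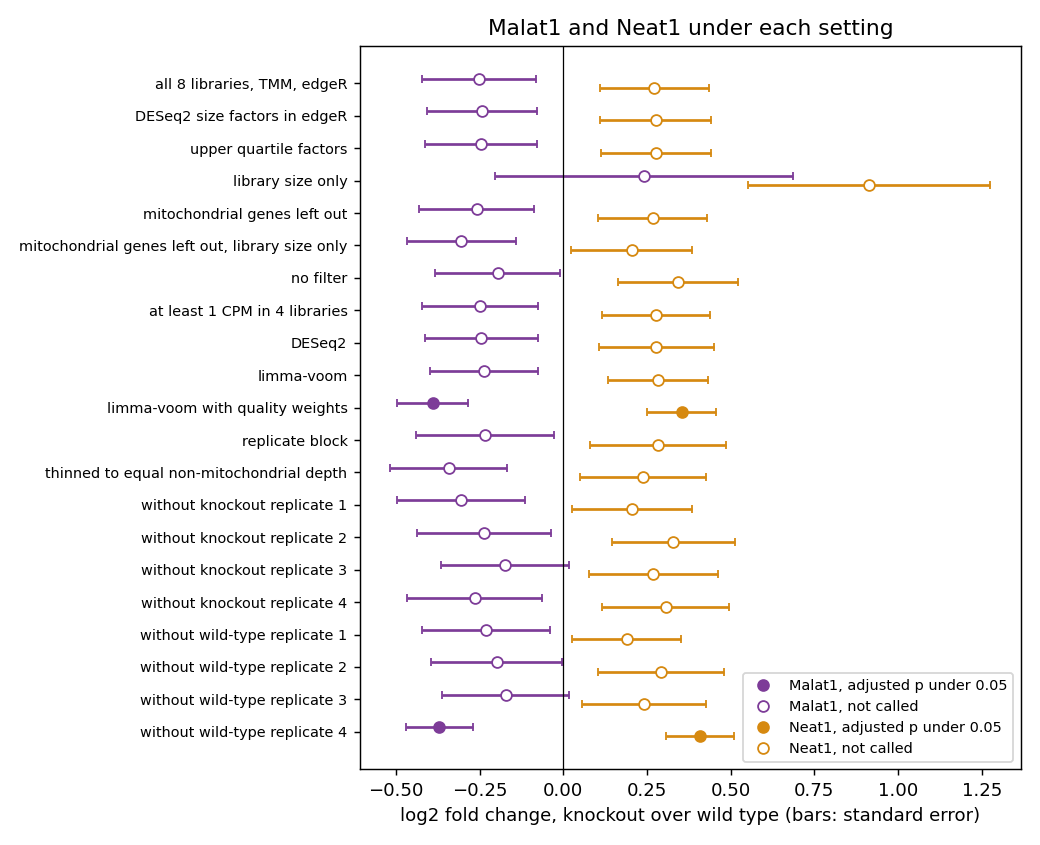
Log2 fold change of Malat1 and Neat1 in KO over WT, with standard errors, in the fit of all 8 libraries and under 20 alternatives. Filled points passed an adjusted p of 0.05, which happened for both RNAs without WT 4 and with quality weights for the libraries. Those 2 fits called 4853 of 13777 and 4984 of 13204 genes. Malat1 lies right of 0 with library size only and left of it elsewhere.

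The balance of both RNAs within a library needs no scaling. KO 1 to KO 4 held 0.340, 0.382, 0.289 and 0.383 Malat1 counts for each Neat1 count, against 0.637, 0.533, 0.624 and 0.281 in WT 1 to WT 4. Each of WT 1 to WT 3 was above every KO liver, and WT 4 was below all 4. The log2 ratio averaged -1.53 ± 0.19 in KO livers and -1.02 ± 0.55 in WT livers (SD, n = 4 each), and a two-sided exact permutation test gave p = 0.143 (adjusted over 3 measures, 0.214). Without WT 4 the WT mean was -0.75 ± 0.14, the difference was -0.78 and the exact p was 0.0571, the smallest that 4 against 3 libraries allow (adjusted p = 0.0857). The same exact permutation test gave p = 0.143 for the share of Malat1 and 0.343 for that of Neat1 over 8 libraries (adjusted 0.214 and 0.343), and 0.0571 and 0.114 without WT 4 (adjusted 0.0857 and 0.114).

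Set against the mitochondrial share, Neat1 kept an order within each genotype and Malat1 did not. From the lowest to the highest mitochondrial share the KO livers ran KO 2, KO 4, KO 3, KO 1, and Neat1 stood at 413, 438, 471 and 532 CPM in that order. The WT livers ran WT 1, WT 3, WT 2, WT 4, and Neat1 stood at 309, 353, 394 and 482 CPM. So Neat1 was higher with each step of mitochondrial share in either genotype. Between the genotypes it was the other way round, since the KO livers had the smaller mitochondrial shares. Such an order in both genotypes was found for 273 of 13204 genes (2.07%). Malat1 stood at 158, 168, 136 and 181 CPM along the KO order and at 197, 220, 210 and 136 CPM along the WT order. The genotypes do not overlap in this share and each holds 4 libraries, so the order is given as a description, with no correlation.

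**Figure D3:**
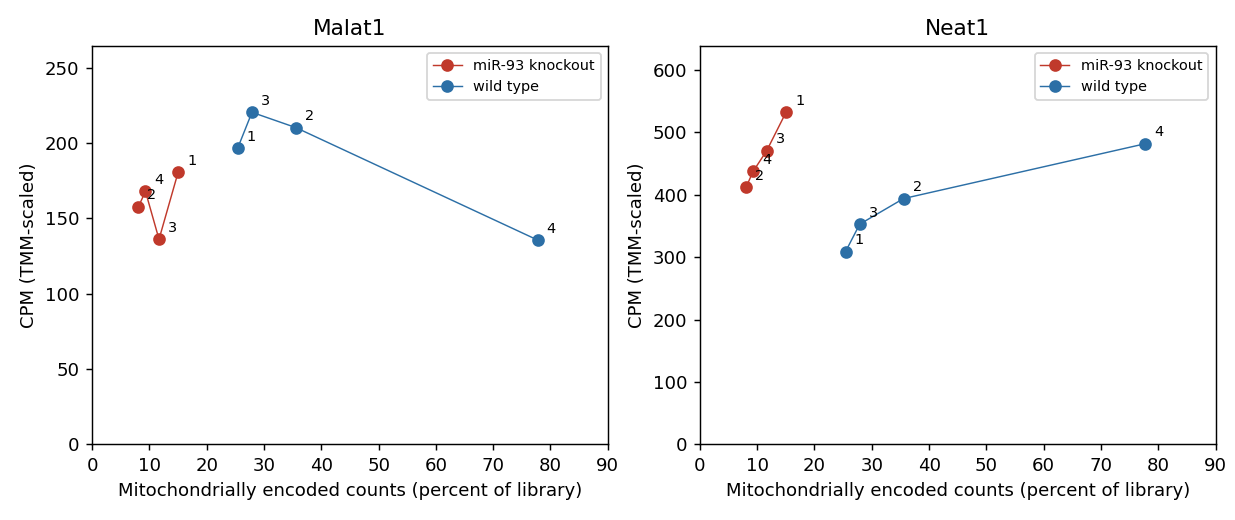
CPM of Malat1 and Neat1 against the percent of counts on the mitochondrial genome, for each knockout and wild-type liver (numbers are replicates, lines join libraries of a genotype). Neat1 climbs along both lines, to 532 CPM in KO 1 and 482 CPM in WT 4, while Malat1 has its lowest WT value, 136 CPM, at the highest mitochondrial share.

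As a share of all counts, mitochondrial ones included, the picture differed. Neat1 took 0.0670%, 0.0534%, 0.0588% and 0.0559% in KO livers, against 0.0328%, 0.0385%, 0.0366% and 0.0169% in WT livers, with no overlap. The exact permutation p was 0.0286, the smallest that 4 against 4 libraries allow. It is unadjusted and lies outside the 3 measures adjusted above. Malat1 took 0.0228%, 0.0204%, 0.0170% and 0.0214% in KO livers, against 0.0209%, 0.0205%, 0.0228% and 0.00474% in WT livers, where the groups overlap. The mitochondrial counts in the denominator are part of both comparisons. By library size alone the median log2 fold change of all genes was 0.54, so most genes were higher in KO on such a scale. The edgeR fit by library size alone did not call Neat1 (adjusted p = 0.145). It called 561 of 13204 genes higher and 124 lower. How many other genes had no overlap in their share of all counts was not counted.

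A second annotated row lies on the body of Malat1. Gm37376 (ENSMUSG00000102349) is an unconfirmed transcript model on the opposite strand of chromosome 19. It had 23.3, 26.3, 23.1 and 23.3 counts per 100 Malat1 counts in KO 1 to KO 4, against 23.2, 27.7, 23.5 and 26.1 in WT 1 to WT 4. The ratio thus stayed within 23.1 to 27.7 while Malat1 itself ranged from 241 to 2221 counts. Its log2 fold change was -0.33 ± 0.16 (edgeR adjusted p = 0.178), and -0.42 ± 0.12 without WT 4 (adjusted p = 0.00684). No source states whether reads were counted by strand, so reads of Malat1 and of this row cannot be told apart.

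Of 5 protein-coding neighbours on chromosome 19 described here, 1 fell in KO over 8 libraries and none rose, in a fit that called 10.7% of all genes lower and 10.4% higher. On the Malat1 side, Ltbp3, which binds latent TGF-beta, had a log2 fold change of -0.20 ± 0.18 (edgeR adjusted p = 0.454). Near Neat1, Frmd8 was at -0.46 ± 0.22 (adjusted p = 0.165) over 8 libraries and passed without WT 4, where it was lower in KO (-0.60 ± 0.15, adjusted p = 0.00301) while Neat1 was higher. Slc25a45, a mitochondrial carrier, fell in KO with all 8 libraries (-1.0 ± 0.19, adjusted p = 0.00463) and without WT 4 (-0.81 ± 0.13, adjusted p = 2.6e-05), but was not called with library size only (-0.35, adjusted p = 0.457). Dpf2 (-0.41 ± 0.18, adjusted p = 0.133) and the low Cdc42ep2 (-0.29 ± 0.55, adjusted p = 0.745) were not called, and neither they nor Ltbp3 passed without WT 4 (-0.22, 0.11 and -0.19 for Dpf2, Cdc42ep2 and Ltbp3). Sssca1, Fam89b and Tigd3 had too few counts to test.

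Of 10 other tested nuclear long non-coding RNAs, none passed over 8 libraries (median log2 fold change -0.36, against -0.01 for all genes). That fit called 10.4% of all genes higher and 10.7% lower. Kcnq1ot1, the imprinted antisense RNA of the Kcnq1 domain, had 3.58, 1.18, 2.56 and 2.74 CPM in KO livers, against 3.66, 2.89, 3.34 and 37.7 CPM in WT livers. Dleu2, the host of miR-15a and miR-16-1, had 22.6, 19.4, 22.6 and 21.5 CPM in KO livers, against 24.3, 27.6, 27.9 and 99.5 CPM in WT livers. WT 4 was thus far above the rest for both, whereas its Malat1 level lay within the range of the KO livers by share and was nearly that of KO 3 in CPM (136.0 in KO 3, 135.5 in WT 4). Firre, a repeat-rich RNA tied to the X chromosome, had 82.7, 64.4, 73.0 and 63.5 CPM in KO livers, against 82.4, 118, 86.3 and 95.6 CPM in WT livers, with a log2 fold change of -0.43 ± 0.16 (edgeR adjusted p = 0.0713). WT 4 was the highest library for 5 of the 10 and the lowest for 1, and over all tested genes it was the highest for 31.0% and the lowest for 40.8%. Without WT 4, 1 of 11 was higher in KO, Lncpint (log2 fold change 1.19, adjusted p = 0.0315, named after its value was seen), and 1 was lower, Firre (-0.42, adjusted p = 0.00973). Over all genes that fit called 17.8% higher and 17.5% lower.

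Among 8 tested long non-coding RNAs listed as mainly cytoplasmic, 1 rose and 1 fell in KO over 8 libraries, 12.5% each way beside 10.4% and 10.7% of all genes. The one that rose was 2900097C17Rik, the mouse form of NORAD, a decoy for Pumilio proteins, with 34.9, 48.6, 43.6 and 46.3 CPM in KO livers, against 18.9, 18.3, 22.1 and 28.1 CPM in WT livers (log2 fold change 1.03 ± 0.17, edgeR adjusted p = 0.00165). Dancr fell, with a log2 fold change of -1.05 ± 0.22 (adjusted p = 0.008). Its call was lost with library size only (-0.48, adjusted p = 0.394) and with replicate number as a block (adjusted p = 0.0601). Snhg8 was at -0.54 ± 0.25 (adjusted p = 0.149). WT 4 was the highest library for 6 of these 8. Without it, 2900097C17Rik (log2 fold change 1.14) and Gas5 (0.34, adjusted p = 0.0112) rose and Dancr fell (-1.03, adjusted p = 0.00145), and the list's median turned to 0.12, against -0.40 over 8 libraries.

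Of 4 protein-coding genes whose transcripts have been described as held in the nucleus, 3 fell in KO (75.0%, beside 10.7% of all genes). Their median log2 fold change was -0.83, against -0.01 for all genes. Slc7a2 encodes an amino acid transporter, and in mouse its nuclear isoform is held in paraspeckles. It had 321, 424, 347 and 405 CPM in KO livers, against 818, 787, 813 and 504 CPM in WT livers (log2 fold change -0.97 ± 0.18, edgeR adjusted p = 0.00376). Mlxipl, which encodes the carbohydrate-responsive factor ChREBP, fell as well (-0.83 ± 0.17, adjusted p = 0.0056), as did the inflammasome gene Nlrp6 (-0.84 ± 0.25, adjusted p = 0.0376). Gcgr, the glucagon receptor, was not called (-0.47 ± 0.26, adjusted p = 0.217). Gene counts hold nuclear and cytoplasmic transcripts of these genes alike. The call of Nlrp6 was lost without KO 2, KO 3, KO 4 or WT 2, and with replicate number as a block (adjusted p of 0.0881 to 0.126). All 3 calls were lost with library size only, at adjusted p-values from 0.481 to 0.843. Without WT 4, Slc7a2, Mlxipl and Nlrp6 fell again (log2 fold changes of -1.10, -0.89 and -0.55), and Gcgr was at -0.12 (adjusted p = 0.480). In that fit 17.5% of all genes were called lower.

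Of 34 tested genes for paraspeckle proteins, 1 rose and 3 fell (median log2 fold change -0.04), shares of 2.94% and 8.82% beside 10.4% and 10.7% of all genes. Those that fell were Hnrnph3 (-0.67 ± 0.15, edgeR adjusted p = 0.00916), Hnrnph1 (-0.54 ± 0.13, adjusted p = 0.0132) and Dazap1 (-0.56 ± 0.16, adjusted p = 0.0295), all RNA-binding proteins. Rbm3, a cold-inducible RNA-binding protein, rose (0.63 ± 0.19, adjusted p = 0.0403). Hnrnph1 lost its call without KO 2 or KO 4 (adjusted p of 0.0592 and 0.0596), and Dazap1 without any 1 of KO 1 to KO 4 or WT 2 (adjusted p of 0.0554 to 0.11). With thinned counts Hnrnph3 was at -0.52 (adjusted p = 0.112) and Dazap1 at -0.52 (adjusted p = 0.0829). With replicate number as a block, Hnrnph3, Hnrnph1 and Dazap1 all lost their calls (adjusted p of 0.0601, 0.0887 and 0.119). Without a filter Hnrnph1 and Dazap1 lost theirs (adjusted p of 0.0767 and 0.0677). By library size alone, with its median of 0.54, Hnrnph3 was at -0.08 (adjusted p = 0.888) and the signs of Hnrnph1 and Dazap1 turned. The core proteins Nono and Sfpq, named here for their role, had adjusted p-values of 0.0528 and 0.111. Nono had 65.5, 72.8, 59.2 and 70.2 CPM in KO livers, against 53.3, 43.8, 48.7 and 22.5 CPM in WT livers. All KO livers lay above WT 1 to WT 3 for Nono, as they did for 20.3% of all genes, and WT 4 was lower still. Sfpq was at 44.8, 39.4, 46.9 and 45.2 CPM in KO livers, against 38.9, 34.5, 35.8 and 20.8 CPM in WT livers. Without WT 4, 6 of 35 rose, Nono (log2 fold change 0.47, adjusted p = 0.00132) and Sfpq (0.28, adjusted p = 0.0403) among them, and 6 fell. That is 17.1% each way, close to the 17.8% higher and 17.5% lower among all genes.

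Genes for nuclear speckle proteins, the home of Malat1, were called in one direction over 8 libraries: 6 of 38 fell and 0 rose (15.8% lower, beside 10.7% of all genes), with a median log2 fold change of -0.26. Srsf7, a splicing factor, had 52.3, 40.2, 49.5 and 42.7 CPM in KO livers, against 71.1, 91.0, 75.7 and 130 CPM in WT livers (-0.98 ± 0.19, edgeR adjusted p = 0.00528). Srsf11 (-0.61 ± 0.16, adjusted p = 0.020) and Son, a scaffold of the speckle (-0.53 ± 0.15, adjusted p = 0.0254), fell too, with Tra2a, Srsf4 and Acin1. Without WT 4, 17 of 38 fell and 1, Snrnp70, rose (44.7% lower, beside 17.5% of all genes). Malat1 was lower in KO in that fit as well, and Neat1 higher. Without KO 2, KO 3 or KO 4 only 1 of 38 fell, and without WT 2 only 2. Over all genes, 734 of 13182, 850 of 13194 and 728 of 13179 were called lower without KO 2, KO 3 and KO 4. Without WT 2 it was 938 of 13691. Srsf11 and Son lost their calls in each of these 4 fits (adjusted p of 0.0586 to 0.0984), and with replicate number as a block (0.0938 and 0.114). Son lost its call without a filter too (adjusted p = 0.0936). With library size only none of the 38 was called and the sign of Son turned. That last setting called 561 of 13204 genes higher and 124 lower.

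**Figure D4:**
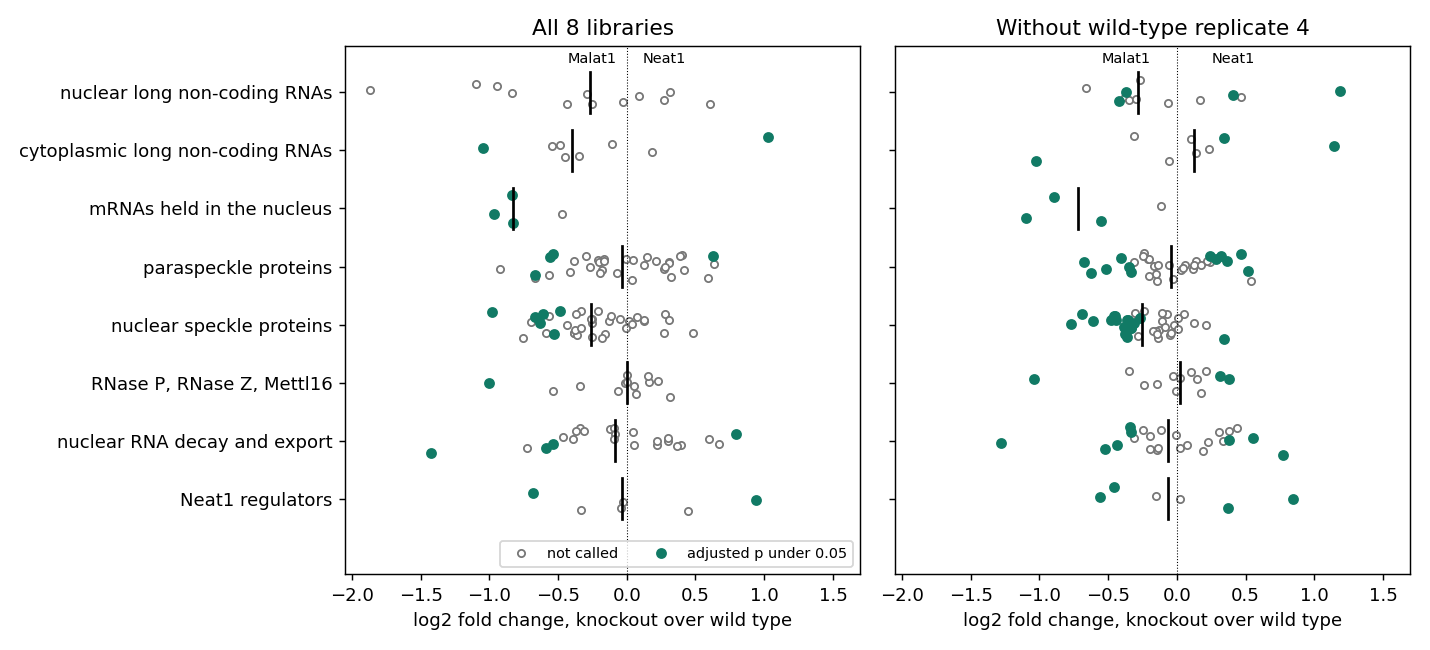
Log2 fold change (KO over WT) of every tested gene of 8 lists, over 8 libraries on the left and without WT 4 on the right. Filled points passed an adjusted p of 0.05 and black lines are list medians. The speckle proteins lie mostly left of 0 (medians -0.26 and -0.25), and Malat1 and Neat1 are marked on opposite sides of 0 in the top row.

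Malat1 is cut by RNase P, and of 13 tested genes for that enzyme, for RNase Z and for the triple-helix binder Mettl16, 1 fell (7.69%, beside 10.7% of all genes) and 0 rose. It was Rpp38, a low RNase P subunit with 2.44, 2.10, 1.68 and 3.12 CPM in KO livers, against 5.18, 3.57, 5.76 and 3.94 CPM in WT livers (log2 fold change -1.0 ± 0.30, edgeR adjusted p = 0.0344). The subunits Rpp21 (-0.54 ± 0.20, adjusted p = 0.0826) and Pop5 (0.31 ± 0.13, adjusted p = 0.108) came next by p-value and were not called. The call of Rpp38 was lost without KO 1, KO 2, KO 3, WT 1 or WT 3 (adjusted p of 0.0686 to 0.106) and with library size only (adjusted p = 0.473). It was also lost with replicate number as a block (adjusted p = 0.120) and without a filter (adjusted p = 0.0777). Without WT 4, Pop5 and Elac2 rose (0.31 and 0.38, adjusted p of 0.0423 and 0.0433) and Rpp38 fell (-1.04, adjusted p = 0.0071). These are 15.4% higher and 7.69% lower, beside 17.8% and 17.5% of all genes.

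Of 24 tested genes for nuclear RNA decay and export, 3 fell and 1 rose, shares of 12.5% and 4.17% beside 10.7% and 10.4% of all genes. Exosc8, an exosome subunit, fell (log2 fold change -1.42 ± 0.21, edgeR adjusted p = 0.000807), as did Thoc1 of the export complex (-0.59 ± 0.15, adjusted p = 0.0204) and Exosc1, close to the threshold (-0.54 ± 0.18, adjusted p = 0.0497). Mtrex, the helicase that feeds nuclear RNA to the exosome, rose (0.80 ± 0.22, adjusted p = 0.0246). Thoc1 lost its call without KO 2, KO 3, KO 4 or WT 2 (adjusted p of 0.0642 to 0.0784) and its sign turned with library size only, and Mtrex lost its call without KO 1, KO 2, WT 1 or WT 3 (adjusted p of 0.0564 to 0.0611). With counts thinned to the shallowest library Mtrex was at 0.57 (adjusted p = 0.188) and Thoc1 at -0.69 (adjusted p = 0.0502). With library size only Exosc8 was at -0.80 (adjusted p = 0.160), and Mtrex was not called (adjusted p = 0.0724). With replicate number as a block Mtrex and Thoc1 lost their calls (adjusted p of 0.0738 and 0.0844). Without WT 4, 5 of the 24 fell and 3 rose, 20.8% and 12.5% beside 17.5% and 17.8% of all genes.

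Among 6 regulators known to act on Neat1 transcription, 1 rose and 1 fell over 8 libraries, in a fit that called 10.4% of all genes higher and 10.7% lower. Epas1, which encodes the hypoxia factor HIF-2 alpha, had 99.3, 123, 112 and 118 CPM in KO livers, against 63.3, 59.0, 68.0 and 42.2 CPM in WT livers (log2 fold change 0.94 ± 0.16, edgeR adjusted p = 0.00216). Hsf1, the heat shock factor, fell (-0.68 ± 0.18, adjusted p = 0.0217). Its call was lost without KO 2, KO 3, KO 4 or WT 2, and with replicate number as a block (adjusted p of 0.0698 to 0.0793). Atf2 was at 0.45 ± 0.17 (adjusted p = 0.081), and Trp53, Hif1a and Rela were not called. Without WT 4, Epas1 and Atf2 rose (log2 fold changes of 0.84 and 0.37, adjusted p of 5.7e-07 and 0.0468), Hsf1 and Trp53 fell (-0.56 and -0.46, adjusted p of 0.00271 and 0.00224), and Hif1a and Rela were not called. That is 33.3% each way, beside 17.8% higher and 17.5% lower among all genes. With library size only, Epas1 (adjusted p = 0.0762) and Hsf1 (adjusted p = 0.920) lost their calls. Of the short RNAs without a poly(A) tail that were looked up, Rny1 had 3 counts in all, and Rpph1, the RNA of RNase P, had 0.

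Genes whose pattern over the 8 libraries was most like that of Malat1 were sought among 7038 annotated genes with a mean of at least 10 CPM, by Pearson's r of log2 CPM. For Malat1 they included Rprd1a (r = 0.959), Gsk3b (0.959), Smurf1 (0.949) and Tank (0.948). For Neat1 they were Fyco1 (0.968), Oplah (0.965), Copa (0.962), Preb (0.960) and Ncaph2 (0.957). The 100th gene still had r = 0.841 for Malat1 and 0.820 for Neat1, so these lists are the top of a long slope. Without WT 4, Tank stayed among the 5 for Malat1 and Ncaph2 among the 5 for Neat1. Between Malat1 and Neat1, r was -0.63 over 8 libraries and -0.57 over 7. These libraries share their genotype difference and mitochondrial share, so r is given as a description.

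Cell type markers differed between the genotypes beside these results. Over all genes, the fit of 8 libraries called 10.4% higher and 10.7% lower in KO, the shares to set beside its marker counts. Hepatocyte markers were at 45938 to 53587 summed CPM in KO livers and 51268 to 62957 in WT livers, with 3 of 8 higher and 1 lower, so the liver label fits its markers. Of 10 Kupffer cell markers 6 rose and 0 fell (148 to 182 summed CPM in KO livers, 47.3 to 205 in WT livers), and of 9 sinusoidal endothelial markers 6 rose and 0 fell (161 to 305 in KO livers, 106 to 204 in WT livers). The highest WT sum was that of WT 4 in both lists. Without WT 4, 9 of the 10 and 7 of the 9 rose and 0 fell, beside 17.8% higher and 17.5% lower among all genes. Of 7 B cell markers 6 fell and 0 rose (11.7 to 75.1 in KO livers, 58.5 to 503 in WT livers), as did 3 of 5 tested markers of T and NK cells (3.73 to 6.32 in KO livers, 8.38 to 13.5 in WT livers). Of 8 stellate cell markers 1 fell, of 5 erythroid markers 2 fell, of 2 tested cholangiocyte markers 1 rose, and the 1 tested neutrophil marker was not called, with Ly6g and Ngp at 0 in every library. With each library left out in turn, 3 to 9 Kupffer cell, 6 to 7 endothelial, 4 to 6 B cell and 0 to 4 T and NK cell markers were called in these directions. Of 13179 to 13777 genes tested, those fits called 760 to 2446 higher and 728 to 2407 lower. The part of these markers in the levels of Malat1 and Neat1 was not tested.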

How the data were processed

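Bulk RNA-seq of 8 mouse liver libraries was read from 1 table of raw counts per Ensembl gene ID that the authors deposited. The submitters' processing notes name cutadapt 4.2, STAR 2.7.10a and the mm39 build. The counting tool, its strand setting, its treatment of reads matching several genes and any poly(A) selection are not given in the sources used here. GENCODE M21 (GRCm38, another build) served for symbols (52073 of 56748 IDs), exon lengths, gene order and transcript sequence, and no gene coordinates are given.

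KO was compared with WT in R 4.3.3 with edgeR 4.0.16 (robust quasi-likelihood fit, TMM, filterByExpr, which kept 13204 of 25937 genes with a count, Benjamini-Hochberg adjustment, threshold 0.05). Standard errors are the log2 fold change divided by the square root of F. Single values were tested by two-sided exact permutation over 70 assignments (35 without WT 4). The fit was also run on simulated data with planted changes. All simulated libraries shared a common mean profile otherwise. That run therefore cannot test the effect of mitochondrial share or of WT 4. By raw library size, 3 counts are 0.590 CPM in the shallowest library. Shares have exact Clopper-Pearson intervals for counting error only. Alternatives covered scaling, filters, mitochondrial genes, DESeq2 1.42.0, limma 3.58.1, a replicate block, thinned counts and each library left out. The members, lists and tests were chosen with earlier results of these data known. Named genes were the 3 smallest p-values of each functional list, all members of lists of at most 5, the 5 nearest protein-coding genes on each side, and the 5 most alike genes per RNA. Others were named after their values were seen, to complete counts of 5 or fewer or for their role. Some genes that these rules or lists name are not reported here.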

Additional observations from a re-analysis of the deposited data

Results flagged for a closer look

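Malat1 took 0.00474% of all counts in WT 4, which lay far below the other 3 WT livers, at 0.0205% to 0.0228%. That library holds 77.8% mitochondrial counts. The opposite-strand row Gm37376 had 26.3 counts per 100 Malat1 counts in KO 2, while the other 3 KO livers had 23.1 to 23.3. Values of 4 libraries were screened in 26 groups, and a gap this wide comes up by chance in about 1 of 20 groups.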

How the results depend on the processing

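Malat1 was lower and Neat1 higher in KO under the alternatives tried, except that Malat1 turned to 0.24 with library size only. Both passed the threshold in 2 of 20 alternatives: without WT 4, and in limma-voom with quality weights (-0.39 for Malat1, 0.35 for Neat1). Such calls were frequent there too: with quality weights 2432 of 13204 genes were called higher and 2552 lower. With each library left out, Malat1 ran from -0.37 to -0.17, Neat1 from 0.19 to 0.41 and the number of genes called from 1489 to 4853, against 2777 with all. The last was 685 with library size only, 4984 with quality weights and 1583 with counts thinned to the depth of the shallowest library. With a replicate block it was 1267, Malat1 was -0.23 and Neat1 0.28, neither called. Same-numbered libraries did not deviate together (r from -0.19 to -0.03). These deviations are taken from means of 4 libraries, so they cannot settle whether the numbers pair the libraries. With all counts as denominator, KO minus WT turned to 0.00313 percentage points for Malat1 and was 0.0276 for Neat1 (unadjusted exact permutation p = 0.0286). Most genes were higher in KO on such a scale. For 31 other named genes, 519 of 616 values kept direction and call. The replicate block took the call from 11 of the 31, and leaving out the filter took it from 4. Log2 fold changes that turned with library size only were Gm37376 at 0.19, Firre 0.14, Snhg8 0.099, Gcgr 0.29, Hnrnph1 0.039, Dazap1 0.084, Son 0.065, Rpp21 0.096, Thoc1 0.0072, Ltbp3 0.36, Frmd8 0.044, Dpf2 0.24 and Cdc42ep2 0.37. Thinning turned Ltbp3 to 0.064. Cdc42ep2 turned to 0.10 in limma-voom and 0.57 with quality weights. With each library left out, Cdc42ep2 ran from -0.71 to 0.11. The cause was not tested. WT 4 has the fewest counts of each RNA, 241 of Malat1 and 857 of Neat1.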
